A study of Mus musculus with 6 samples.

Results

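The Mu class glutathione S-transferases are 7 genes of the mouse genome, Gstm1 to Gstm7, and their RNA was followed here in liver through every array probe set that carries the symbol of one of them. The 7 genes had 12 such probe sets among the 45037 that do not serve as array controls, and all 12 were bright enough to be tested. The arrays measured liver RNA of 3 conditional Keap1 knockout mice, Alb-Cre:Keap1(flox/-), in which a floxed allele lay opposite a null allele, and of 3 genetic controls, Alb-Cre:Keap1(flox/+), in which it lay opposite a wild-type allele. All 6 mice were male, 9 weeks old and had received vehicle alone, made of 10% DMSO, 10% Cremophor-EL and 80% PBS, and each array held the liver of 1 mouse. Cre was driven by the albumin promoter in both groups, so the floxed allele was the target in hepatocytes, while the null allele of the knockouts was present in every cell. In the labels the knockouts carry numbers 3 to 5 and the controls numbers 1 to 3, which serve below as names only.

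Glutathione S-transferases join the thiol of glutathione to electrophiles, which makes the products soluble in water and ready for export. The Mu class enzymes are cytosolic dimers that are abundant in liver, and they handle epoxides, quinones and reactive aldehydes. KEAP1 holds the transcription factor NRF2, encoded by Nfe2l2, at a low level by marking it for degradation, and NRF2 acts through antioxidant response elements in DNA near genes of detoxification. Gstm1 and Gstm3 are often used in mice as reporters of NRF2 activity.

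The 7 genes lie side by side on chromosome 3, in the RefSeq order Gstm5, Gstm7, Gstm6, Gstm3, Gstm2, Gstm1 and Gstm4. Gstm5 is read from the plus strand and the other 6 from the minus strand. RefSeq (GRCm38.p6) gives 12 promoter windows for them, each with 250 bases before and 50 after a transcription start. The 250 bases upstream of the start are printed for the 3 members with a single window, 2 whose RNA was higher in the knockouts (Gstm3 and Gstm2) and 1 whose RNA was not called (Gstm5), so that the sequences next to the starts can be compared with the responses. Capitals mark the letters of 3 motifs on either strand, the antioxidant response element core TGACNNNGC, the GC box GGGCGG and the CCAAT box. Coordinates are chr3:107969175-107969424 on the minus strand for Gstm3, chr3:107986421-107986670 on the minus strand for Gstm2 and chr3:107895604-107895853 on the plus strand for Gstm5.
Gstm3: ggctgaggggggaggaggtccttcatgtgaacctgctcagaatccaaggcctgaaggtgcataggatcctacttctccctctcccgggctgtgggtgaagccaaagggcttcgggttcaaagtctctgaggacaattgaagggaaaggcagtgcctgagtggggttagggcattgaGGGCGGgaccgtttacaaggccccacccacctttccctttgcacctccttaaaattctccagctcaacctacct
Gstm2: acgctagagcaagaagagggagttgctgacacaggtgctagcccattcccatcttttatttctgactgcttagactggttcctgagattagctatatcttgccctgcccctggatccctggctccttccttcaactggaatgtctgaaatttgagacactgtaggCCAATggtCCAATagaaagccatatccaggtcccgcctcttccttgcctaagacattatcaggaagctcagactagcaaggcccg
Gstm5: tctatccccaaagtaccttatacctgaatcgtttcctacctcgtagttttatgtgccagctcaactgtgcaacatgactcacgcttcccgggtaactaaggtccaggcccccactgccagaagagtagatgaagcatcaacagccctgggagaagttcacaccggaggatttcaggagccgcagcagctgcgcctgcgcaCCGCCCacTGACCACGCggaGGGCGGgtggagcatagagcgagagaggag
The antioxidant response element core was present in 2 of the 12 windows, at position -42 of Gstm5 as TGACCACGC and at position -129 of the second Gstm7 window as TGACAAAGC, counted from the start of the window's transcript. No window of Gstm1, Gstm2, Gstm3, Gstm4 or Gstm6 held these letters, which says nothing of sequence outside the windows. Of all 32851 windows in the table, 12.4% held the core. The GC box was present in windows of Gstm3, Gstm4, Gstm5 and Gstm7 and in 35.7% of all windows, and the CCAAT box in windows of Gstm1, Gstm2, Gstm4, Gstm6 and Gstm7 and in 37.4% of all windows. In Gstm4 a CCAAT box on the minus strand and a GC box on the plus strand overlapped.

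Signal is a linear intensity that the authors had scaled, and its median over probe sets lay between 114 and 135 in the knockouts and between 126 and 146 in the controls. The ratio of the 3′ to the 5′ actin probe set, a sign of RNA quality, was 1.85 on the array of knockout 5 and 1.58 and 1.6 on those of knockouts 3 and 4, against 1.90 for control 2 and 1.58 and 1.54 for controls 1 and 3. Keap1 checks the labels. Its brighter probe set (1450746_at) had a signal of 326, 151 and 214 in knockouts 3, 4 and 5, against 786, 843 and 699.8 in controls 1, 2 and 3, a log2 difference of -1.74 (SE 0.24, limma adjusted p = 0.0102). A dimmer Keap1 probe set (1450747_at) averaged 329 ± 119.9 in the knockouts, against 527 ± 45.3 in the controls (SD, n = 3 each) and was not called (limma adjusted p = 0.222), and whether either one detects the deleted exons was not analysed here. The brighter Nfe2l2 probe set (1416543_at) was lower, with a log2 difference of -0.66 (limma adjusted p = 0.0352, and 0.0567 without the filter on signal). A dimmer Nfe2l2 probe set (1457117_at) differed by -0.18 with overlap and was not called (limma adjusted p = 0.716). The hepatocyte markers were present in both groups, and their signals summed to between 301308 and 334822 in the knockouts, against 263454 to 297809 in the controls, and 0 of 12 were called (5 had an unadjusted p under 0.05 in limma). In whole liver, fewer cells of a type and less RNA per cell cannot be told apart. Over all 27022 probe sets tested, 415 were called, 220 higher and 195 lower (limma, Benjamini-Hochberg), and the split was 184 higher and 87 lower after median centring and 135 higher and 410 lower after scaling on the hybridisation controls, which moved the median difference of all probe sets to -0.19.

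Gstm3, Gstm2, Gstm4 and 1 of the 4 Gstm1 probe sets were higher in the knockouts, and the fold differed widely between the paralogs. Gstm3 rose 9.94-fold and 4.77-fold in its 2 probe sets, Gstm2 rose 3.46-fold, Gstm4 3.14-fold and the called Gstm1 probe set 2.17-fold. Gstm5, Gstm6 and Gstm7 were not called. In all, 5 of 12 probe sets, from 4 of 7 genes, were called higher and 0 lower, where 0.814% of all tested probe sets were called higher and 0.722% lower (limma on log2(signal + 16), adjusted p under 0.05 over all probe sets). At an unadjusted p under 0.05 limma gave 9 member probe sets higher and 0 lower, where 6.48% of all tested probe sets were higher and 8.01% lower at that level, and a test that took each probe set's variance on its own called 0 of all 27022 probe sets after adjustment. The median log2 difference was 0.76 over the 12 and -0.04 over all probe sets tested. The lowest knockout lay above the highest control in 8 of the 12 probe sets, against 9.1% of all probe sets tested. The same number of member probe sets, 5, was called under each of the other scalings tried.

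**Figure D1:**
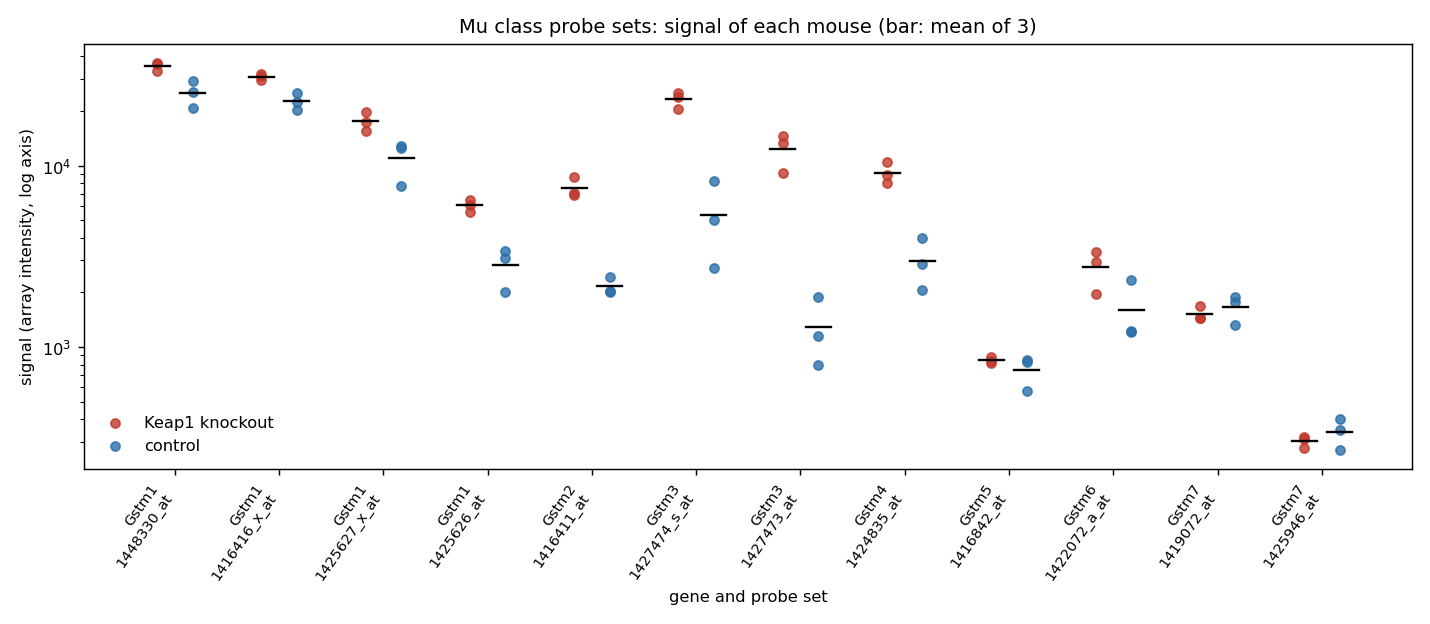
Signal of the 12 Mu class probe sets in each mouse, on a log axis, with the 3 Keap1 knockouts left of the 3 controls and a bar at each group's mean. The groups lie apart in all probe sets of Gstm1, Gstm2, Gstm3 and Gstm4 and overlap in those of Gstm5, Gstm6 and Gstm7.

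Gstm3, a Mu class enzyme known in mouse liver as inducible by electrophilic compounds, had 2 probe sets. The first (1427473_at) had a signal of 13389.9, 14522 and 9131 in knockouts 3, 4 and 5, against 1156, 793 and 1895 in controls 1, 2 and 3. The lowest knockout was 5 and the highest control was 3, and the groups were far apart. The means were 12348 ± 2843 in the knockouts, against 1281 ± 561 in the controls (SD, n = 3 each), a log2 difference of 3.31 (SE 0.29, 95% interval 2.67 to 3.96, limma adjusted p = 0.000796). It ranked 14th among all tested probe sets by the size of its rise. The second (1427474_s_at) had 24013, 24967 and 20492 in the knockouts, against 5019, 2737 and 8187 in the controls. The same mice were lowest and highest, without overlap. Its log2 difference was 2.25 (SE 0.32, 95% interval 1.54 to 2.97, limma adjusted p = 0.0118). The call of the second probe set was lost without knockout 3 (limma adjusted p = 0.0534) and without the variance trend (0.0791). The second probe set responded by 1.06 less than the first on the log2 scale, and the ratio of the first to the second did not overlap between the groups. The suffix s marks a design whose probes may match several transcripts, and 4 of the 12 probe sets carry such a suffix (x, s or a). Probe sequences were not used here, so how far the paralogs share probes was not tested.

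Gstm2, another cytosolic Mu class subunit of mouse liver, had 1 probe set (1416411_at), with a signal of 8684, 7026 and 6879 in knockouts 3, 4 and 5, against 2433, 2034 and 2013 in controls 1, 2 and 3. Each group was tight and the groups were wide apart, with control 1 and knockout 3 the highest of their groups. The log2 difference was 1.79 (SE 0.12, 95% interval 1.51 to 2.07, limma adjusted p = 0.000231). It had the lowest p-value among the 12 probe sets and ranked 17th among all probe sets tested. Leaving out any 1 mouse gave differences between 1.68 and 1.88, each of them called.

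Gstm4 stands at the end of the cluster next to Gstm1 in gene order. Its 1 probe set (1424835_at) had a signal of 10446 in knockout 3, 8829 in knockout 4 and 7974 in knockout 5, against 2851, 2064 and 3984 in controls 1, 2 and 3. The groups did not overlap, and control 3 was the highest control. The log2 difference was 1.65 (SE 0.21, 95% interval 1.17 to 2.13, limma adjusted p = 0.00751). The call held without any 1 mouse and was lost without the variance trend (limma adjusted p = 0.0618).

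Gstm1, a major Mu class subunit of mouse liver, had 4 probe sets, and they gave different sizes of response. The brightest (1448330_at) had a signal of 36605, 36138 and 33221 in knockouts 3, 4 and 5, against 29218, 20720.2 and 25432 in controls 1, 2 and 3. The groups did not overlap, but control 1 lay close below the knockouts. Its log2 difference was 0.50 (SE 0.13, 95% interval 0.22 to 0.79), which was not called (limma adjusted p = 0.104). Under the other scalings tried it lay between 0.31 (quantile normalization) and 0.61 (median centring). A second bright probe set (1416416_x_at) averaged 30901 ± 1314 in the knockouts, against 22631 ± 2369 in the controls (SD, n = 3 each). Its log2 difference of 0.45 was not called (limma adjusted p = 0.0688) and lay between 0.27 and 0.56 under those other scalings. The third (1425627_x_at) averaged 17533 ± 2106 in the knockouts, against 11037 ± 2853 in the controls (SD, n = 3 each), a log2 difference of 0.70 that was not called (limma adjusted p = 0.128).

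The dimmest Gstm1 probe set (1425626_at) was the one that was called. Its signal was 5540, 6088 and 6500.3 in knockouts 3, 4 and 5, against 3386, 2018 and 3097 in controls 1, 2 and 3. The lowest knockout was well above the highest control. Its log2 difference was 1.12 (SE 0.18, 95% interval 0.72 to 1.52, limma adjusted p = 0.02). The call was lost without knockout 3, 4 or 5 (limma adjusted p = 0.0630, 0.0552 and 0.0632) and without the variance trend (0.108). The per-array ratio of this probe set to each of the other 3 Gstm1 probe sets did not overlap between the groups, with responses 0.62, 0.67 and 0.42 larger on the log2 scale. The 2 brightest Gstm1 probe sets stood at the 99.98th and 99.93th percentile of signal in the knockouts and at the 99.87th and 99.77th in the controls, where the highest signal of any probe set was 40482 to 45204 on the knockout arrays and 37657 to 39034 on the control arrays. Whether such signals approach saturation was not tested.

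Gstm6, Gstm5 and Gstm7 form the end of the cluster away from Gstm1 and Gstm4. The Gstm6 probe set (1422072_a_at) had a signal of 2953, 3351 and 1972 in knockouts 3, 4 and 5, against 2354, 1214 and 1230.4 in controls 1, 2 and 3. Knockout 5 lay below control 1, so the groups overlapped. The log2 difference was 0.82 (SE 0.27, 95% interval 0.20 to 1.43) without a call (limma adjusted p = 0.213).

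Gstm5, the mouse counterpart of a human Mu class gene known from brain and testis, had a signal of 814, 841 and 884 in knockouts 3, 4 and 5, against 849.7, 570.4 and 826 in controls 1, 2 and 3 (1416842_at). Controls 1 and 3 lay within the range of the knockouts, and control 2 stood below all other mice. The log2 difference was 0.19 (95% interval -0.17 to 0.56, limma adjusted p = 0.626), and without control 2 it was 0.01. The interval of Gstm5 reaches up to 1.47-fold higher, so a response of that size is not excluded, and without both control 2 and knockout 5 its log2 difference was -0.017.

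Gstm7 was the one member whose values were lower on average in the knockouts, and neither of its probe sets was called. The brighter (1419072_at) had 1438, 1453 and 1684 in knockouts 3, 4 and 5, against 1779, 1320.1 and 1896 in controls 1, 2 and 3. The knockouts lay within the range of the controls. Its log2 difference was -0.11 (95% interval -0.45 to 0.22, limma adjusted p = 0.781). The dimmer (1425946_at) averaged 303 ± 21 in the knockouts, against 339 ± 64 in the controls (SD, n = 3 each), with a log2 difference of -0.14 (95% interval -0.53 to 0.25, limma adjusted p = 0.763).

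The signal of the members covered a wide range. By the brightest probe set of each gene, the knockout mean was 35321 for Gstm1, 7529 for Gstm2, 23158 for Gstm3, 9083 for Gstm4, 846 for Gstm5, 2759 for Gstm6 and 1525 for Gstm7. The control mean was 25124 for Gstm1, 2160.1 for Gstm2, 5314 for Gstm3, 2966 for Gstm4, 749 for Gstm5, 1599 for Gstm6 and 1665 for Gstm7. These are signals of different probe sets, which bind with different strength, and they do not rank the amounts of RNA. A response is a difference between the groups within 1 probe set, and even probe sets of the same gene gave responses that differed without overlap, as described for Gstm1 and Gstm3, so the comparisons of members below hold for the probe sets used.

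The responses of the members were compared in all 21 pairs, with the brightest probe set of each gene. For each array the log2 signal of one member was subtracted from that of another, so that a factor common to all signals of an array nearly cancels. An array effect that depends on the level of signal does not cancel. With quantile normalization the brightest Gstm1 difference was 0.31 instead of 0.50, and that of the dimmer Gstm5 was 0.21 instead of 0.19. The pairs reuse the same few probe sets and arrays, so they are not independent of one another. The share among pairs of other genes was not computed, and among single probe sets 20.5% of all tested did not overlap in either direction. The 2 groups' values did not overlap in 15 pairs, or 71.4%. Each of these had an exact two-sided permutation p of 0.1, the smallest that 3 mice against 3 allow, and an adjusted p of 0.14 over the 21 pairs, so no pair could pass the threshold. Gstm3 minus Gstm7 gave the widest contrast, with mean log2 ratios of 3.91 among the knockouts and 1.54 among the controls, a difference of 2.37 (SE 0.35). Gstm3 responded more than Gstm1 by 1.75 (SE 0.38), Gstm2 more than Gstm1 by 1.29 (SE 0.13) and Gstm4 more than Gstm1 by 1.15 (SE 0.24). In each of these 3 pairs the values of the 3 knockouts lay above those of the 3 controls. The sizes depended on the Gstm1 probe set. Against the called Gstm1 probe set (1425626_at), a comparison added after the values were seen, Gstm3 responded more by 1.13 (SE 0.33) and Gstm2 by 0.67 (SE 0.26), both without overlap. Gstm4 differed from that probe set by 0.53 (SE 0.25) with overlap (exact permutation p = 0.2). Gstm2 and Gstm4 differed in response by 0.14 (SE 0.29, exact permutation p = 0.9), and Gstm3 and Gstm2 by 0.46 (SE 0.48, exact permutation p = 0.5), both with overlap. Gstm6 overlapped with Gstm7, Gstm4, Gstm5 and Gstm1 in its per-array ratios. Gstm5 responded more than Gstm7 by 0.31 (SE 0.06) without overlap, although neither gene was called by itself.

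**Figure D2:**
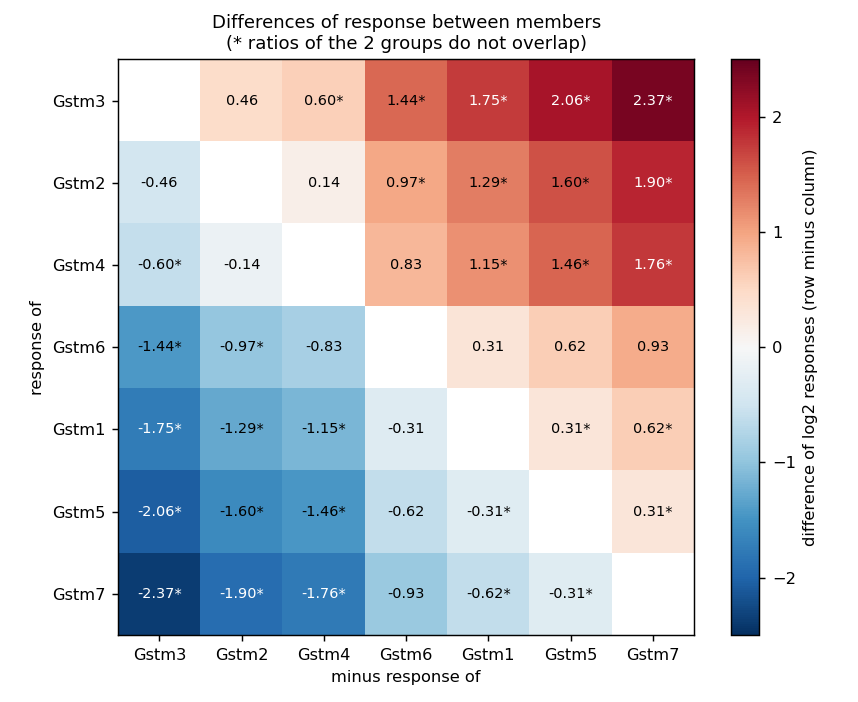
Differences of log2 response between members, row minus column, with a star where the per-array ratios of knockouts and controls do not overlap. Gstm3 has the largest values, up to 2.37 against Gstm7, and Gstm2 against Gstm4 is near 0.

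In most member probe sets the same mouse was the lowest of its group, whereas the full order of the mice varied. Control 2 had the lowest control signal in 11 of the 12 probe sets, where it was the lowest control in 35% of all tested probe sets. Gstm2 was the exception, with control 3 just below control 2. Among the knockouts, mouse 5 was lowest in 8 of the 12, where it was the lowest knockout in 28.8% of all tested probe sets, and mouse 4 was lowest in 0, against 39.9% of all. Knockout 5 was, however, the highest knockout in the called Gstm1 probe set, in Gstm5 and in the brighter Gstm7 probe set. Control 2 and knockout 5 are also the 2 arrays with the highest actin 3′ to 5′ ratios. Without both, an alternative added after the values were seen, all 5 calls held, with log2 differences of 3.22 and 1.93 for the first and second Gstm3 probe set, 1.81 for Gstm2, 1.51 for Gstm4 and 0.84 for the called Gstm1 probe set. Control 2 was also the highest control in the cholangiocyte markers Krt19 (501.9, against 8.3 and 17.4 in controls 1 and 3) and Krt7. Control 3 was the highest in Sox9, Epcam and Cftr. Among stellate cell and fibroblast markers, control 2 was the highest control in Acta2 (2142, against 639.5 and 778.7) and in all others but Des and Dcn. These markers were compared after their values were seen. The parts of RNA quality and of tissue content in which mouse was lowest were not tested. The probe sets share these arrays and partly share targets, so their counts are not independent. Without control 2 the log2 differences were 1.85 and 3.02 for the second and first Gstm3 probe set, 1.75 for Gstm2 and 1.42 for Gstm4, and all 5 calls held. The knockouts varied less than the controls, relative to their mean, in 11 of the 12 probe sets, where 51.3% of all probe sets as bright as the dimmest member did so. The coefficient of variation of the first Gstm3 probe set was 23.0% in the knockouts and 43.8% in the controls, that of the second was 10.2% in the knockouts and 51.5% in the controls, and that of Gstm2 was 13.3% in the knockouts and 11% in the controls.

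Along the chromosome, the called members were neighbours in gene order. Gstm3, Gstm2, Gstm1 and Gstm4 follow one another, with only pseudogenes annotated between them, and Gstm6, Gstm7 and Gstm5 precede them. Of the 8 genes on each side of the cluster, 9 had a probe set of their own and 6 were bright enough to be tested. Of these 6, 0 were called (limma, 1 higher and 2 lower at an unadjusted p under 0.05). Over all genes by their brightest probe set 0.982% were called higher and 0.89% lower, so 0 calls among 6 genes say little about the flanks. Eps8l3, the nearest protein-coding gene beyond Gstm5, averaged 64.3 ± 12.1 in the knockouts, against 125 ± 16.5 in the controls (SD, n = 3 each), a log2 difference of -0.82 without a call (limma adjusted p = 0.223). Ampd2, the AMP deaminase beyond Gstm4, differed by -0.41 (limma adjusted p = 0.291). The median of the 6 was 0.00, beside -0.02 over all genes by their brightest probe set.

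**Figure D3:**
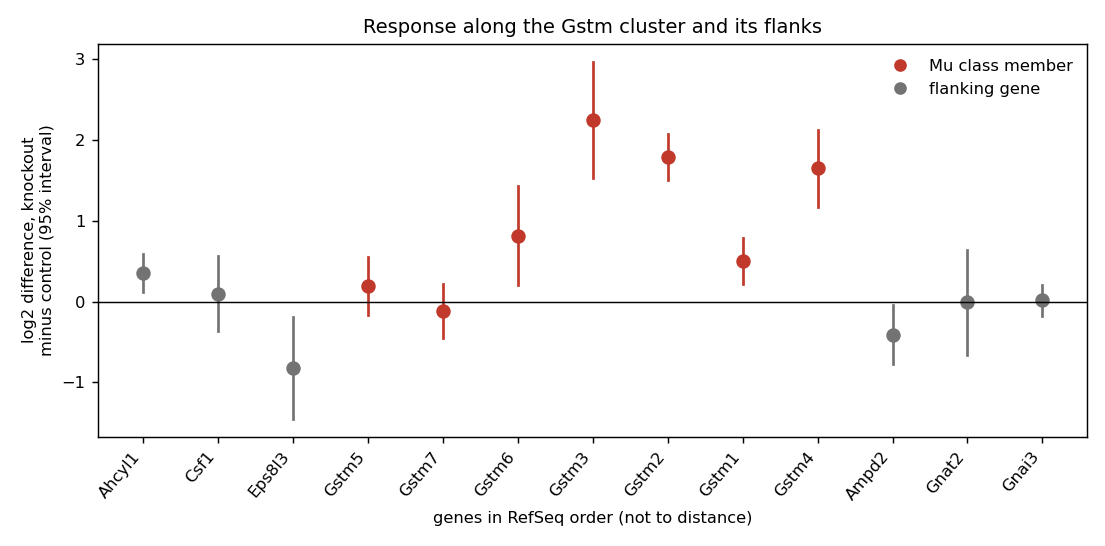
Log2 difference, knockout minus control, with 95% intervals, for the Mu class genes and the tested flanking genes in RefSeq order, each by its brightest probe set. The values of 1.65 to 2.25 for Gstm3, Gstm2 and Gstm4 stand above those of the genes on both sides, and Gstm1 lies between them at 0.50.

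Among the other classes of glutathione transferase, Gsta2 and Gstt3 were higher in the knockouts. Of 17 genes of the Alpha, Pi, Theta, Omega, Zeta, Kappa, sigma and microsomal classes, 12 were tested, and 2 were called higher and 0 lower, where 0.982% of all genes by their brightest probe set were called higher and 0.89% lower (limma). By the same measure 3 of the 7 Mu class genes were called, since the brightest Gstm1 probe set was not. At an unadjusted p under 0.05 limma gave 6 of the 12 higher and 0 lower. The median log2 difference of the 12 was 0.24. Gsta2, an Alpha class enzyme, averaged 17728 ± 3384 in the knockouts, against 3368 ± 563 in the controls (SD, n = 3 each), a ratio of 5.23-fold (limma adjusted p = 0.000204). Gstt3, a Theta class enzyme, averaged 3849 ± 541 in the knockouts, against 1931 ± 366 in the controls (SD, n = 3 each), a ratio of 2-fold (limma adjusted p = 0.0201). The other 10 differed by -0.21 to 1.25 on the log2 scale without a call. Whether the Mu class differs from the other classes was not tested.

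**Figure D4:**
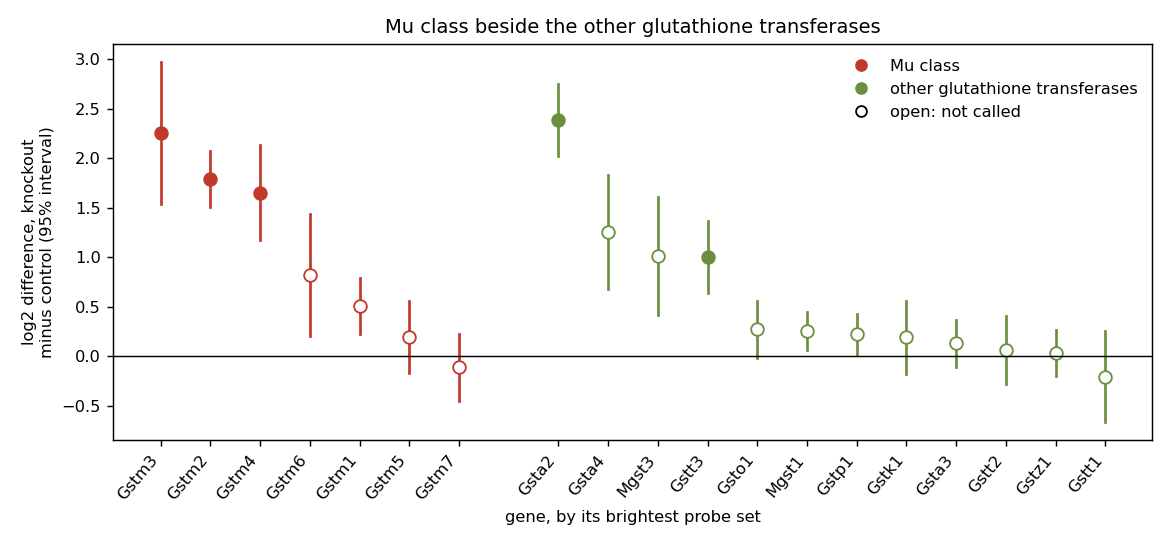
Log2 difference, knockout minus control, with 95% intervals, of the 7 Mu class genes and of 12 other glutathione transferases, each by its brightest probe set, filled where called. Gsta2 at 2.39 and Gstm3 at 2.25 are the highest of the 2 sets, and most other transferases lie near 0.

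The supply of glutathione and the export of its conjugates moved as follows. In glutathione synthesis and recycling 4 of 12 genes were called higher and 0 lower (limma, 7 higher and 0 lower at an unadjusted p under 0.05), with a median log2 difference of 0.58. Gclc, the catalytic subunit of the enzyme that limits glutathione synthesis, rose 2.26-fold (limma adjusted p = 0.00162). Gsr, which reduces oxidised glutathione, rose 1.64-fold, Gss, which completes its synthesis, rose 1.55-fold, and Gpx4, which reduces lipid peroxides with it, rose 1.5-fold (limma adjusted p = 0.0357, 0.0427 and 0.0169). Of 11 tested genes of conjugate export and mercapturate processing, 3 were called higher and 1 lower, with a median of 0.03. The exporters Abcc4, Abcc2 and Abcc3 rose 20.6-fold, 1.71-fold and 1.64-fold (limma adjusted p = 2.03e-06, 0.0250 and 0.0188). Nat8, an N-acetyltransferase that acts on cysteine conjugates, fell, with 1422 ± 221 in the knockouts, against 2581 ± 28.6 in the controls (SD, n = 3 each, limma adjusted p = 0.0127). Of 13 tested genes that serve as reporters of NRF2, 9 were called higher and 0 lower (limma). At an unadjusted p under 0.05 limma gave 11 higher and 0 lower, and the median was 1.17. Hmox1, Ephx1, Gclm and Me1 were not called. Over all genes by their brightest probe set, 0.982% were called higher and 0.89% lower. The reporter list was chosen with earlier results of these data known, and its Abcc4 and Gclc also stand in the lists above. By size the leading genes of that list were Cbr3 at 6.73, Abcc4 at 4.37, Cbr1 at 2.56 and Nqo1 at 2.31 on the log2 scale, each by its brightest probe set. By the same measure Gstm3, at 2.25, fell below all 4, whereas its other probe set (1427473_at), at 3.31, lay above Cbr1 and Nqo1.

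Genes with the most similar pattern over the 6 arrays were sought for the 3 members whose brightest probe set was called, among 13029 other genes. Likeness was the root-mean-square difference between log2 profiles, each centred on its own mean. Nearest to Gstm2 were Megf9 at 0.13, Stk10 at 0.15 and Lysmd2 at 0.23, with rises of 3.10-fold, 2.90-fold and 3.12-fold. Nearest to Gstm3 were D630045J12Rik at 0.28, the quinone reductase Nqo1 at 0.35 and Spaca4 at 0.40. Nearest to Gstm4 were Gm13483 at 0.12, Spink1 at 0.21 and D630045J12Rik at 0.21. All of these genes were called higher (limma), and the difference between the groups is itself a part of each profile.

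Markers of zones and of other cell types were read beside these results. Mu class transferases are known in mouse liver as more abundant near the central vein. The summed signal of 9 pericentral markers was 95655 to 101865 in the knockouts and 74710 to 89120 in the controls, without overlap. Such a sum weighs bright genes most, and 7 of the 9 had a log2 difference above 0, some of them with overlap between the groups. Of the 9, 1 was called higher, the ammonium transporter Rhbg (log2 difference 1.36, limma adjusted p = 0.0146), and at an unadjusted p under 0.05 limma gave 3 higher and 1 lower. The lower one was the transcription factor Tbx3 (log2 difference -0.73, limma adjusted p = 0.140), whose groups did not overlap. Tbx3, Lyve1, Marco and Cd5l were picked for mention after their values were seen. The summed signal of 7 periportal markers was 96689 to 99216 in the knockouts and 82422 to 105721 in the controls, with 0 called (limma, 2 at an unadjusted p under 0.05). Without Pck1, the periportal marker with the largest difference, the sums were 87197 to 93582 in the knockouts and 75452 to 87333 in the controls. The hepatocyte sums given above did not overlap either, and 11 of those 12 markers had a log2 difference above 0. The lack of overlap is therefore not particular to the pericentral list. Markers of Kupffer cells and macrophages summed to 12171 to 15951 in the knockouts and 8871 to 15208 in the controls (8 tested). Those of lymphocytes summed to 846 to 989.6 in the knockouts and 734 to 884 in the controls (5 with a probe set, 3 of them tested), those of stellate cells and fibroblasts to 8801 to 10585 in the knockouts and 9176 to 11879 in the controls (8 tested), and those of cholangiocytes to 258 to 528 in the knockouts and 313 to 1318 in the controls (5 with a probe set, 4 of them tested). Endothelial markers summed to 5722 to 6131 in the knockouts and 5543 to 5686 in the controls. Of the 7 tested, 3 had a log2 difference above 0, and the median was -0.000215. Without Lyve1, the marker of that list with the largest difference (1.29, not called), the sums were 4684 to 5426 in the knockouts and 4961 to 5354 in the controls, with overlap. In these 5 lists 0 markers were called (limma), and 0 markers were under the offset of 16 on all arrays. At an unadjusted p under 0.05 limma gave 1 endothelial marker, Lyve1, and 2 Kupffer cell markers, all higher. The latter were Marco (log2 difference 1.40, without overlap) and Cd5l (0.51, with overlap), and 5 of the 8 Kupffer cell markers had a log2 difference above 0. The part of the pericentral and hepatocyte sums in the Mu class results was not tested.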

How the data were processed

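Liver RNA of 6 mice was measured on 1-colour Affymetrix arrays, 1 mouse per array. The deposited values are signal intensities per probe set on a linear scale, which the authors had summarised and scaled before deposit, and the trimmed mean (2% from each end) was 500 on every array. No source used here names the summarising software. Probe sets were named from the platform annotation, of which 34945 had 1 symbol, 932 several and 9160 none, and 64 array control probe sets were left out. Values were taken as log2(signal + 16), and the 27022 probe sets whose mean over the 6 arrays reached the 40th percentile were tested. The comparison of the groups used limma 3.58.1 under R 4.3.3 (mean-variance trend, two-sided, Benjamini-Hochberg over all probe sets tested, threshold 0.05), and fold changes are on the log2(signal + 16) scale. The fit was tested on simulated data. Pairs of members were compared by exact permutation over arrays. Precision is limited by the number of arrays. The limma p-values rest on the spread between these mice, with each probe set's variance drawn toward a trend over all probe sets tested. Scan dates and slides were not used. Members, lists and tests were chosen with earlier results of these data known. Every member is named with all probe sets. Of each list, up to 4 called genes with the largest difference are named, or the 2 largest where none was called, and so are the 3 nearest profiles of each called member. Promoter sequences are from RefSeq (GRCm38.p6). A comparison of the members' proteins was planned and is not analysed here.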

Additional observations from a re-analysis of the deposited data

How the results depend on the processing

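The log2 difference of every member probe set kept its sign under all alternatives run, with the exception of Gstm5, at -0.017 without the 2 arrays of the highest actin 3′ to 5′ ratio (control 2 and knockout 5), a setting chosen after seeing the data. Of the 12 member probe sets, 5 were called as reported, 2 without the variance trend (Gstm2 and the first Gstm3 probe set), 3 of 7 with 1 probe set per gene, 0 with the Welch test (6 at an unadjusted p under 0.05) and 3 to 5 when each mouse was left out, the lowest without knockout 3. With array weights 6 were called, the sixth being the Gstm1 probe set 1416416_x_at (limma adjusted p = 0.0486). The 415 calls over all probe sets became 271 without the filter, 271 with median centring, 109 without the trend, 263 with 1 probe set per gene, 166 without those 2 arrays (all 5 member calls held), 0 with the Welch test (2542 at an unadjusted p under 0.05) and 150 to 296 when each mouse was left out; the lowest was without knockout 3, and without control 1, 2 or 3 the count was 216, 218 or 245 and without knockout 5 it was 275. Fewer mice enter the fits without a mouse and fewer probe sets the fit per gene, and the cause of the other changes was not tested. Non-overlapping pairs numbered 13 to 18 under the alternatives run, against 15 as reported, and the lowest count was with quantile normalization. They numbered 15 to 18 when each mouse was left out and 18 without those 2 arrays. Dropping an array cannot make a separated pair overlap, so these last counts could not fall and do not test stability. No paired analysis was possible because the 2 groups share only replicate number 3. The lowest member signal on any array was 272, above the offset of 16.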
